A study of Mus musculus with 16 samples.

Results

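The genes described here are 9 that carry or receive hypothalamic signals to the pituitary gland: Trh and its receptor gene Trhr, Sst and its receptor genes Sstr1 and Sstr2, Ghrh, Gnrh1, Kiss1 and Tac2. They were chosen by name, and every probe named for them on the array was taken, which gave 12 of 55681 probes (9 of 34650 gene or transcript names). Sstr1, Gnrh1 and Kiss1 each had a pair of probes and the other genes 1 each. Of these 12 probes, 11 passed the filter on dim probes, which kept probes that 8 or more of the 16 arrays read well above background.

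The hypothalamus of 16 mice was measured on 1-colour Agilent arrays, 1 animal per array. The KO chimeras (n = 8) were C57BL/6J mice given whole-body irradiation of 950 Rad, which destroys the blood-forming cells, and then marrow from adrenergic receptor knockout donors, in which Adrb1 is among the deleted genes. Marrow was injected once behind the eye, at a ratio of 1:4 (knockout to C57BL/6J) whose meaning the labels leave unstated, and tissue was taken after 2 to 3 months. The control mice (n = 8) carry the same treatment text and the same strain, irradiated C57BL/6J, so the labels give irradiation for both groups. No marrow donor is named for the control mice, so whether they were transplanted, and with which marrow, is not settled. The deletions belong to the donor marrow and not to the hypothalamic cells of the host. If the ratio describes donors per recipients, KO chimeras shared donors. The series as a whole also took bone marrow and distal colon, which are not analysed here.

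The hypothalamus controls the anterior pituitary through small peptides released into the portal blood. TRH drives thyrotropin and so the thyroid. GHRH drives growth hormone and somatostatin, the product of Sst, holds it back. GnRH drives the gonadotropins, and the neurons that make it are themselves driven by kisspeptin, the product of Kiss1, which in the arcuate nucleus is made together with neurokinin B, the product of Tac2 in the mouse. The arcuate nucleus, at the base of the hypothalamus, holds the GHRH neurons and a large group of kisspeptin neurons.

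Each array carried 59305 non-control spots, of which 27276 to 42649 were well above background in KO chimeras and 34935 to 43248 in control mice. The lowest number belonged to KO chimera replicate 1 and the highest to control replicate 8, which lay on the same slide. The 16 arrays lay on 6 slides. Scanning took 2 days, and each day took 4 KO chimeras and 4 control mice. Of these arrays, slide 2 held only KO chimera replicate 4. Markers of hypothalamic neurons were well above background on all 16 arrays, among them Pomc, Agrp, Oxt, Avp, Hcrt and Pmch. Of 13 pituitary markers only 6 passed the filter. Tshb, Fshb and Cga did not, while Gh was well above background on 5 arrays of each group and Prl on 4 of each. Adrb1, which encodes the beta-1 receptor missing from the donors, measured −1.45 ± 0.22 in KO chimeras and −0.70 ± 0.35 in control mice on its probe A_52_P322181 (mean ± SD of log2 signal minus the array's 75th percentile, 8 animals each; limma adjusted p = 0.0185). On its other probe it measured −2.84 ± 0.19 in KO chimeras and −2.83 ± 0.18 in control mice (limma adjusted p = 0.966). In bulk tissue, fewer cells of a type and less RNA per cell cannot be told apart.

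The probes are 60 bases long, and their letters show which stretch of each transcript a value reports. Positions are those the files give, in mouse build mm9. For 5 of the 12 probes the sequence ends at the tail of the transcript: it holds AATAAA, the polyadenylation signal, which 10.1% of all probes hold when read on the strand the files print. These are shown as windows of 30 bases with the signal in capitals, because they read the transcript's last stretch.
Trh, A_55_P2071349, chr6:92192061-92192120, minus strand: tgttaatctcaatgacAATAAAatatatcc
Trhr, A_55_P2126502, chr15:44067399-44067458, plus strand: tgtatgtatgagcAATAAAgtatcaaactg
Ghrh, A_55_P1985005, chr2:157155249-157155308, minus strand: cttttccgtcctctgtaaatacAATAAAac
Kiss1, A_55_P2069765, chr1:135226240-135226299, plus strand: ctagacttgtgcAATAAAagcaatgctgcc
Tac2, A_55_P2147566, chr10:127168764-127168823, plus strand: ctcttcgtcaacAATAAAgggtttttacaa

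The second Kiss1 probe reads an earlier stretch of the same transcript, inside the part that codes for the peptide precursor, and so gives a separate measurement of the same RNA. The Sstr2 probe and the first Sstr1 probe also lie in coding sequence, of receptors that span the membrane. They are shown whole, in lower case throughout since no motif is marked.
Kiss1, A_55_P2069768, chr1:135225955-135226014, plus strand: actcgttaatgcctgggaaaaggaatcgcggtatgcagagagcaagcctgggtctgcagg
Sstr1, A_51_P432950, chr12:59314287-59314346, plus strand: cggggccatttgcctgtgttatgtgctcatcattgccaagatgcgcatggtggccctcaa
Sstr2, A_55_P2065424, chr11:113486505-113486564, plus strand: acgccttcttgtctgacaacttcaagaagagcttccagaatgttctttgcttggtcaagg

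The remaining probes were Sst A_51_P262489 (chr16:23889776-23889835, minus strand), Sstr1 A_66_P100777 (chr12:59316670-59316729, plus strand), Gnrh1 A_55_P2095716 (chr14:68364362-68364421, plus strand) and Gnrh1 A_55_P2110860 (chr14:68363316-68363375, plus strand). The share of G and C in the 12 probes ran from 35% to 55%, around the median of 43.3% over all probes.

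None of the 9 genes passed the threshold in KO chimeras against control mice. In limma's fit over 35167 probes, 0 of the 11 member probes had a Benjamini-Hochberg adjusted p under 0.05, where 2.59% of all probes did (0.802% higher and 1.79% lower in KO chimeras). At an unadjusted p under 0.05 there were 2, both of Kiss1, against 20% of all probes. In every one of the 12 member probes the values of the groups overlapped, while 0.839% of all probes had groups without overlap. The exact permutation test over the 12870 possible assignments of the animals, run for each member probe alone, gave an unadjusted p under 0.05 for the same pair of Kiss1 probes. All values that follow are log2 processed signal minus the array's 75th percentile, so 0 is that percentile, and differences are KO chimera minus control. Brightness differs between probes for reasons of the probe itself, so each is compared only with itself across animals. The median difference over all probes was 0.02.

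**Figure D1:**
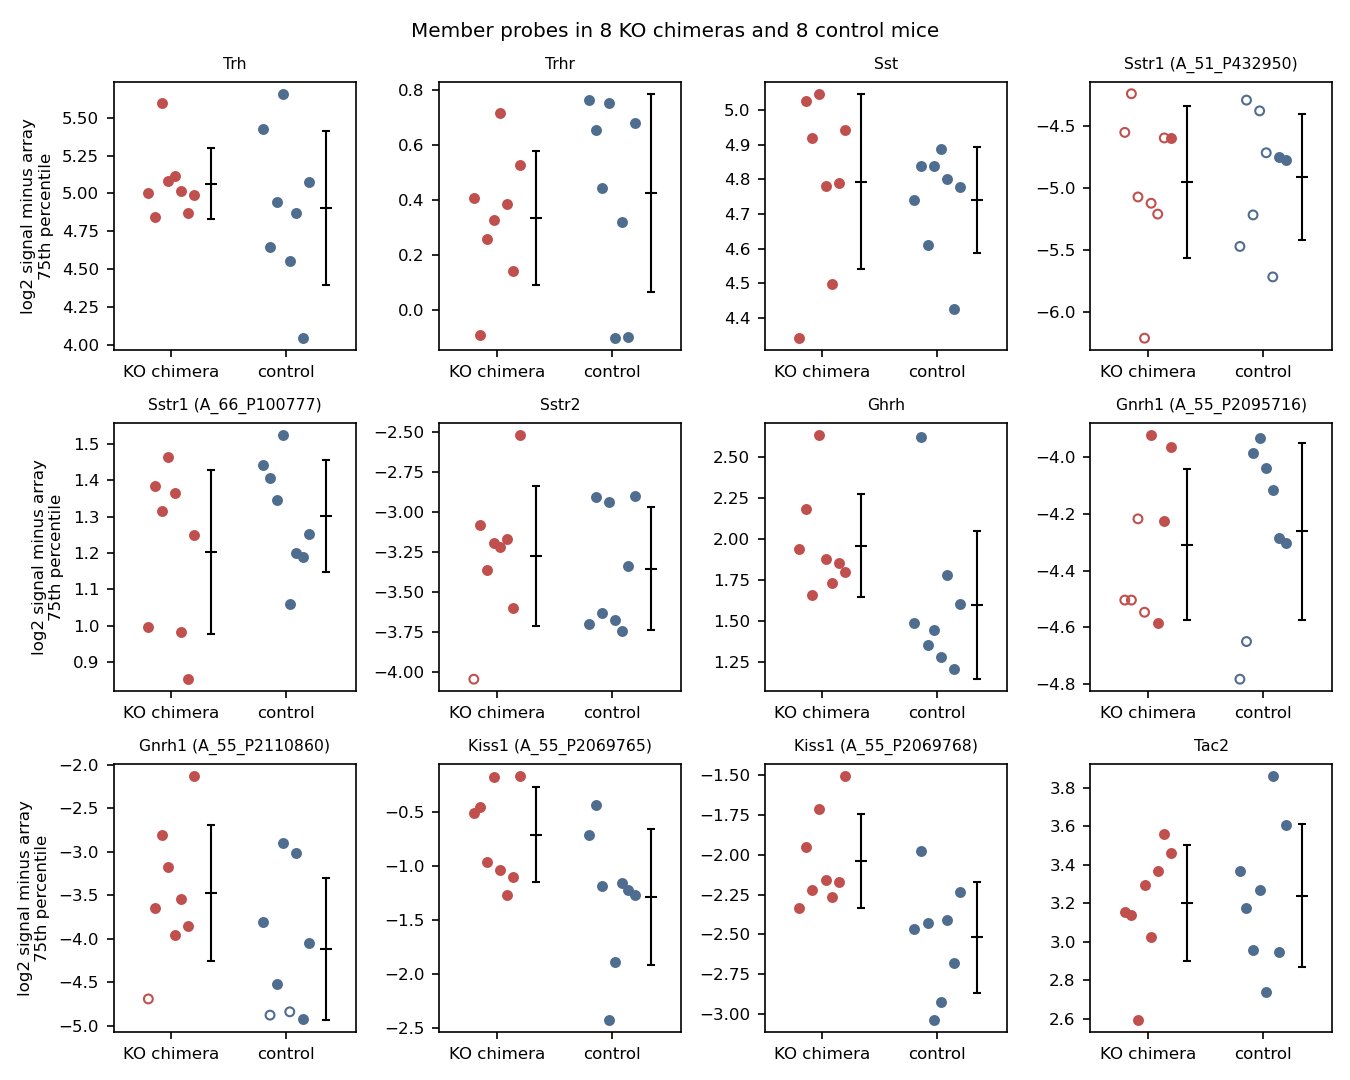
Values of the 12 member probes in 8 KO chimeras (red, left) and 8 control mice (blue, right), as log2 signal minus the array's 75th percentile; each point is 1 animal, the bar is the mean ± SD, open points were not well above background, and each panel has its own axis. The groups overlap in every panel, and in the panels of Ghrh and Kiss1 A_55_P2069768 6 of the 8 control mice lie below every KO chimera.

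Kisspeptin RNA gave the smallest p among the members. On the coding-sequence probe A_55_P2069768, Kiss1 ran from −2.33 over a median of −2.16 to −1.50 in KO chimeras, against −3.04, −2.45 and −1.98 in control mice. The 3 highest animals were KO chimeras (replicates 8, 4 and 2), and 6 of the 8 control mice lay below every KO chimera. The means were −2.04 ± 0.29 in KO chimeras and −2.52 ± 0.35 in control mice (SD, n = 8 each), a difference of 0.48 ± 0.15 (SE) or 1.39-fold, with a 95% interval of 1.11 to 1.74. The limma p was 0.00632 unadjusted and 0.0946 after Benjamini-Hochberg adjustment over all probes, so the difference did not pass the threshold. The exact permutation test gave 0.00979 for this probe alone. The size of the difference depended on the processing. It was 0.29 with normexp background correction and 0.19 with normexp and quantile normalization (limma adjusted p = 0.154 and 0.240). Over all alternatives it ran from 0.19 to 0.56.

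The probe at the tail of the transcript, A_55_P2069765, gave a similar picture with wider spread. Kiss1 values on it ran from −1.27 over −0.74 to −0.17 in KO chimeras, and from −2.43 over −1.20 to −0.44 in control mice. Here 2 control mice, replicates 4 and 5, were lower than every KO chimera, and KO chimeras 8 and 4 were higher than every control mouse. The means were −0.71 ± 0.44 in KO chimeras and −1.29 ± 0.63 in control mice, a difference of 0.58 ± 0.25 (SE), or 1.49-fold with a 95% interval of 1.03 to 2.15. The limma adjusted p was 0.208, and the exact permutation p was 0.0486.

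Both Kiss1 probes ordered the animals alike. With each group's mean removed, their correlation over the 16 arrays was 0.836 (Pearson; permutation p within groups = 0.00022, adjusted over 3 such probe pairs 0.00066) and Spearman's rho was 0.744 (adjusted permutation p = 0.0078). Without the 2 arrays farthest from the median, r was 0.730, and within the scan days it was 0.875 and 0.838. The Gnrh1 probes, annotated to different transcripts, did not pass (r = 0.297 and rho = 0.221, adjusted permutation p = 0.423 and 0.638), with r of 0.714 and −0.193 within the scan days. The Sstr1 probes (r = −0.180 and rho = −0.065, adjusted permutation p = 0.549 and 0.821) did not pass either, with 0.734 and −0.425, and each of these pairs held a probe that was dim on many arrays. The choice to compare probes of the same gene was made after the values had been seen.

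The Kiss1 difference was of the same sign on both scan days but not of the same size on both probes. It was 0.55 on day 1 and 0.41 on day 2 for A_55_P2069768, and 0.95 and 0.21 for A_55_P2069765 (4 KO chimeras and 4 control mice per day). By slide, A_55_P2069768 gave 0.22, 0.35, −0.10, 0.75 and 0.78 on slides 1, 3, 4, 5 and 6, and A_55_P2069765 gave −0.40, 0.15, 0.76, 0.79 and 1.12. On slides 4 and 5 these compare single animals. Once slide was added to the fit as a fixed term, A_55_P2069768 differed by 0.44 (limma adjusted p = 0.184). In that fit KO chimera replicate 4, the only one of these animals on slide 2, adds nothing to the difference.

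Tac2 encodes neurokinin B in the mouse. It ran from 2.59 over 3.23 to 3.56 in KO chimeras and from 2.74 over 3.22 to 3.86 in control mice. The ranges lay almost on top of each other, with KO chimera replicate 3 lowest and control replicate 6 highest. The difference was −0.04 ± 0.16 (SE; 95% interval −0.38 to 0.30; limma adjusted p = 0.915). Across the 16 arrays, with group means removed, Kiss1 and Tac2 correlated at 0.183 (Pearson) and 0.147 (Spearman), with permutation p of 0.533 and 0.608 (adjusted over 15 pairs 0.853 and 0.911).

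Gnrh1, which encodes the releasing hormone for the gonadotropins, is made by few and scattered neurons and lay near the background on these arrays. On A_55_P2110860 it ran from −4.69 over −3.60 to −2.13 in KO chimeras, well above background on 7 of 8, and from −4.92 over −4.28 to −2.90 in control mice, on 6 of 8. Its within-group SD of 0.80 was larger than that of 98.8% of all probes. The means were −3.48 ± 0.78 in KO chimeras and −4.11 ± 0.82 in control mice, a difference of 0.64 ± 0.37 (SE) with a 95% interval of −0.14 to 1.42 (limma adjusted p = 0.347, exact permutation p = 0.128). With normexp background correction this difference was 0.28, and with normexp and quantile normalization 0.13. Over all alternatives it ran from 0.13 to 0.82. On A_55_P2095716 the values were −4.31 ± 0.26 in KO chimeras and −4.26 ± 0.31 in control mice, well above background on 4 and 6 arrays. That difference was −0.05, with a 95% interval of −0.34 to 0.25 (limma adjusted p = 0.880). The probes therefore do not give Gnrh1 a common direction. They are annotated to different transcripts of the gene, so they need not read the same RNA.

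Ghrh encodes the releasing hormone for growth hormone. It ran from 1.66 over 1.86 to 2.63 in KO chimeras and from 1.21 over 1.47 to 2.62 in control mice. Only control replicates 6 and 2 reached the range of the KO chimeras, and control replicate 2 lay almost level with the highest KO chimera, replicate 4. The means were 1.96 ± 0.31 in KO chimeras and 1.60 ± 0.45 in control mice, a difference of 0.36 ± 0.18 (SE), or 1.29-fold with a 95% interval of 0.984 to 1.68. The limma p was 0.0636 unadjusted and 0.279 adjusted, and the exact permutation p was 0.0858. Without control replicate 2 the difference was 0.51 and the limma adjusted p was 0.0605, still short of the threshold. It was 0.20 on scan day 1 and 0.52 on day 2.

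Somatostatin RNA was read by a probe printed as 10 spots per array, of which 1 was left out on control replicate 5. The SD between spots of an array had a median of 0.042 and a highest value of 0.147, on KO chimera replicate 1. Spots of an array share its RNA and labelling, so this SD covers spot noise only. Sst ran from 4.34 over 4.85 to 5.05 in KO chimeras and from 4.43 over 4.79 to 4.89 in control mice. KO chimeras held both the lowest animal, replicate 1, and the 4 highest, replicates 4, 2, 8 and 3. The means were 4.79 ± 0.25 in KO chimeras and 4.74 ± 0.15 in control mice. The difference was 0.05 ± 0.10 (SE), or 1.04-fold, with a 95% interval of 0.892 to 1.21 (limma adjusted p = 0.813).

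The receptors for somatostatin gave no call. Sstr1 on A_66_P100777 ran from 0.85 over 1.28 to 1.46 in KO chimeras and from 1.06 over 1.30 to 1.53 in control mice, with KO chimera replicates 7, 6 and 1 below every control mouse. The difference was −0.10 ± 0.10 (SE; 95% interval −0.31 to 0.10; limma adjusted p = 0.592). The coding-sequence probe of Sstr1 was well above background on only 1 KO chimera array and 2 control arrays, so it measures little. In the fit without the filter it differed by −0.04, with a 95% interval of −0.61 to 0.54 (limma adjusted p = 0.951), where 0.824% of all probes were called (0.433% higher, 0.392% lower) and 17.5% had an unadjusted p under 0.05. Sstr2 ran from −4.04 over −3.21 to −2.52 in KO chimeras and from −3.74 over −3.49 to −2.90 in control mice. The difference was 0.08 ± 0.19 (SE; 95% interval −0.33 to 0.49; limma adjusted p = 0.849), and it turned negative with quantile normalization (−0.05). It was −0.21 on scan day 1 and 0.37 on day 2.

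Trh, which encodes the thyrotropin-releasing hormone, showed a wider spread in control mice than in KO chimeras. It ran from 4.84 over 5.01 to 5.60 in KO chimeras and from 4.04 over 4.91 to 5.66 in control mice. Of the control mice, 3 lay below every KO chimera and 1 above, and the SD was 0.23 in KO chimeras against 0.51 in control mice. This difference in spread was not tested. The means were 5.07 in KO chimeras and 4.90 in control mice, a difference of 0.16 ± 0.19 (SE; 95% interval −0.23 to 0.56; limma adjusted p = 0.659). It was −0.06 on scan day 1 and 0.38 on day 2, and leaving out single animals gave 0.0400 (without control replicate 7) to 0.271 (without control replicate 4). Trhr, the receptor gene, ran from −0.09 over 0.36 to 0.72 in KO chimeras and from −0.10 over 0.55 to 0.76 in control mice. The groups covered nearly the same range, and the difference was −0.09 ± 0.15 (SE; 95% interval −0.40 to 0.22; limma adjusted p = 0.762).

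**Figure D2:**
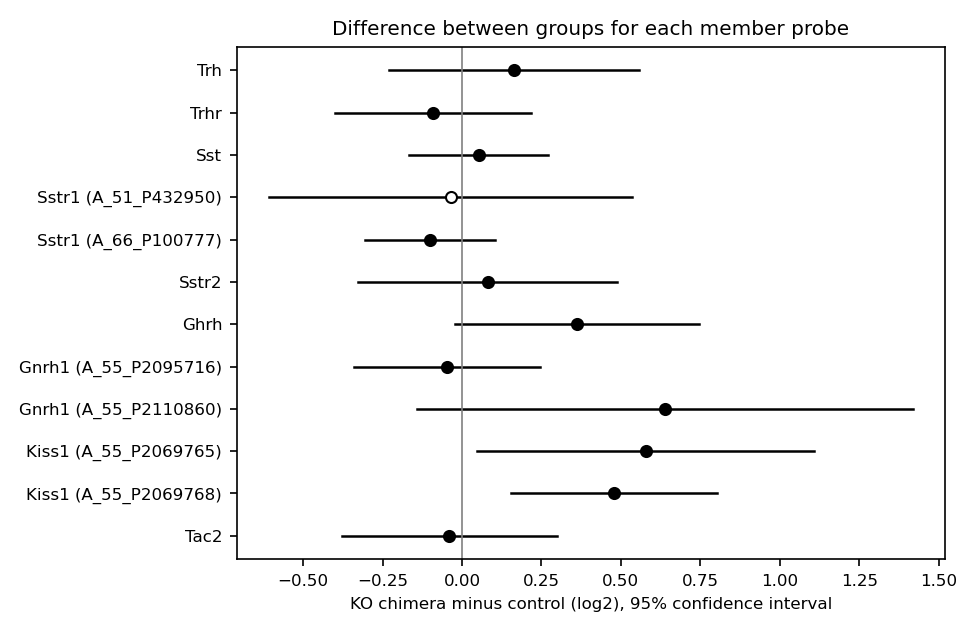
Difference between 8 KO chimeras and 8 control mice for each of the 12 member probes, as KO chimera minus control in log2 units (horizontal axis); points are limma estimates, lines are 95% confidence intervals, and the open point is the Sstr1 probe that failed the filter, from the fit without it. Only the intervals of both Kiss1 probes (0.05 to 1.11 and 0.15 to 0.80) leave out 0, before any adjustment for the number of probes.

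The 95% intervals set what these arrays could have missed in either direction. As KO chimera over control, the interval was 0.892 to 1.21-fold for Sst and 0.809 to 1.07-fold for Sstr1 A_66_P100777. For Gnrh1 A_55_P2110860 it was 0.908 to 2.67-fold. A p above the threshold does not show that a gene was at the same level in both groups.

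The wider axes gave a single call each. Beside the members, 3 lists were read on the brightest probe of each gene, where 2.85% of 24384 genes were called (0.722% higher, 2.13% lower) and the median difference over all genes was 0.00. In the thyroid axis, with 16 genes tested, 0 were called higher and 1 lower, and the median difference was 0.05. In the growth axis, with 16 of 17 tested, 0 were called higher and 1 lower, and the median was −0.01. In the reproductive axis, with 15 tested, 1 was called higher and 0 lower, and the median was 0.13. Ghrhr and Gnrhr, the pituitary receptor genes for GHRH and GnRH, did not pass the filter and were not tested.

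The gene called in the thyroid axis was Dio2, the deiodinase that makes active thyroid hormone from thyroxine and that in the hypothalamus is known from tanycytes and astrocytes. Dio2 ran from −1.85 over −1.44 to −0.97 in KO chimeras and from −1.24 over −0.72 to −0.05 in control mice. Of the KO chimeras, 7 lay below every control mouse, and replicate 4 alone reached their range. It fell by 0.76 ± 0.17 on the log2 scale (SE; 0.590-fold, 95% interval 0.459 to 0.759; limma adjusted p = 0.0331). The call was lost with normexp background correction (limma adjusted p = 0.0665), with no filter (0.0571), with a fixed slide term (0.0582) and without slide 4 (0.0569). Leaving out KO chimera replicate 1, 2, 6 or 8, or control replicate 2, 5 or 7, also ended it (limma adjusted p 0.0505 to 0.0647).

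In the growth axis the gene was Igf1r, the receptor for insulin-like growth factor 1, through which growth hormone output is held in check. Igf1r ran from 0.88 over 1.15 to 1.32 in KO chimeras and from 1.23 over 1.50 to 1.65 in control mice. Of the KO chimeras, 6 lay below every control mouse. It fell by 0.35 ± 0.08 on the log2 scale (SE; 0.783-fold, 95% interval 0.695 to 0.881; limma adjusted p = 0.0345). The call was lost with quantile normalization (limma adjusted p = 0.0639), the deposited table (0.0618), no filter (0.0632) and a fixed slide term (0.0962). Leaving out KO chimera replicate 2, 4, 6, 7 or 8, or control replicate 2, 3, 5 or 7, also ended it (limma adjusted p 0.0511 to 0.0739).

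In the reproductive axis the gene was Oprk1, the kappa opioid receptor, which takes up the dynorphin signal that in the mouse restrains kisspeptin and GnRH release. Oprk1 ran from −0.02 over 0.13 to 0.24 in KO chimeras and from −0.80 over −0.25 to −0.03 in control mice. Every KO chimera lay above every control mouse, though KO chimera replicate 8 and control replicate 8 nearly met. It rose by 0.44 ± 0.09 on the log2 scale (SE; 1.35-fold, 95% interval 1.19 to 1.55; limma adjusted p = 0.0238). The call was lost with normexp background correction (limma adjusted p = 0.0685), with a fixed slide term (0.0582), and when KO chimera replicate 6 (0.0506) or control replicate 7 (0.0521) was left out. Its ligand's gene, Pdyn, was not called. Named after their values were seen, Kiss1r, the kisspeptin receptor gene (−0.31, limma adjusted p = 0.0529), Ghsr, the ghrelin receptor gene (0.31, 0.0677), and Cpe, a carboxypeptidase that trims peptide precursors (−0.28, 0.0689), came closest to the threshold without passing it.

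Markers of the arcuate nucleus are given beside the Kiss1 and Ghrh values. All 11 arcuate nucleus markers had positive differences in KO chimeras, with a median of 0.32, and limma called 0 of them, where 50.06% of all genes had a positive difference and 2.85% were called. For other hypothalamic regions, 7 of 8 were positive for the periventricular and preoptic area (median 0.27), 6 of 7 for the suprachiasmatic nucleus (median 0.36), 4 of 6 for the ventromedial nucleus (median 0.16), 3 of 7 for the paraventricular and supraoptic nuclei (median −0.09) and 0 of 4 for the lateral hypothalamus (median −0.28). The shift was not tested for being particular to the arcuate nucleus. Among the arcuate markers Pomc had the largest difference (3.78 in KO chimeras, 3.19 in control mice; limma adjusted p = 0.176). The mean centred log2 value of the arcuate markers, used as a score per animal, ran from −0.28 to 0.81 in KO chimeras and from −0.62 to 0.69 in control mice. KO chimera replicate 4 and control replicate 2 had the highest scores and also the highest Ghrh values. The summed level of the list was 60.1 to 101 in KO chimeras and 48.9 to 80.4 in control mice (sum of linear signals relative to the 75th percentile).

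Over the 16 arrays, with group means removed, Kiss1 (A_55_P2069765) correlated with the arcuate score at r = 0.702 (permutation p = 0.00414, adjusted over 12 relations 0.0248). Spearman's rho was 0.697 (adjusted permutation p = 0.0596), r was 0.546 without the 2 arrays farthest from the median, and it was 0.857 and 0.842 within the scan days. Ghrh correlated with it at r = 0.821 (adjusted permutation p = 0.0125) and rho = 0.606 (adjusted permutation p = 0.101). Without those 2 arrays r was 0.435 (unadjusted permutation p = 0.130), so that relation rests on them. Each scan day held 1 of those 2 arrays, and within the days r was 0.846 and 0.833. Sst (r = 0.578 and rho = 0.518, adjusted permutation p = 0.0679 and 0.163) did not pass, and neither did Gnrh1, Tac2 or Trh. With markers of ependyma and tanycytes, of which 8 of 10 were positive (median 0.47, 0 called; summed level 18.2 to 31.4 in KO chimeras and 9.98 to 22.1 in control mice), none of the 6 peptide genes passed. Whether the amount of arcuate tissue in a sample plays a part in the Kiss1 and Ghrh values was not tested. These relations were chosen after the values had been seen.

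**Figure D3:**
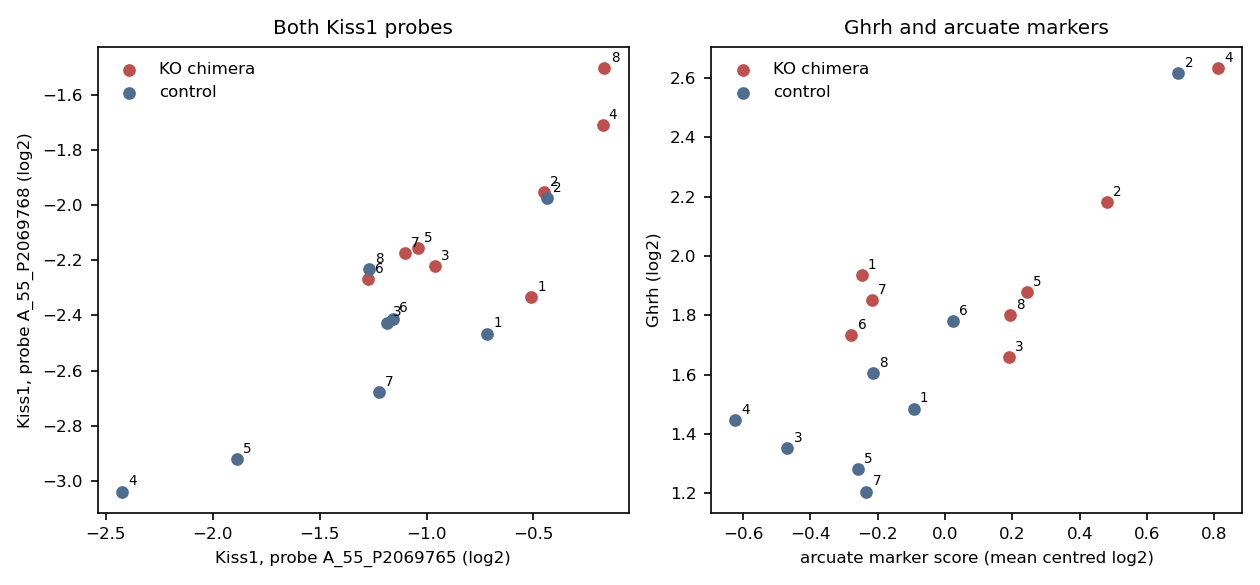
Left, the values of both Kiss1 probes against each other; right, Ghrh against the arcuate marker score (mean of centred log2 values of 11 genes); axes are log2, each point is 1 animal labelled with its replicate number, KO chimeras red and control mice blue. Both Kiss1 probes order the animals alike (r = 0.836 with group means removed), and on the right KO chimera replicate 4 and control replicate 2 stand apart at the top.

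Over all genes, 2.13% were called lower and 50.06% had a positive difference. Beside that, thalamus markers had negative differences in 13 of 13 genes (median −0.82; summed level 33.6 to 62.7 in KO chimeras and 44.2 to 148 in control mice), and Adarb1 (−0.62, limma adjusted p = 0.0451) and Patj (−0.64, 0.0468) were called lower. Oligodendrocyte markers had negative differences in 11 of 13 (median −0.36; 185 to 341 in KO chimeras and 240.1 to 361 in control mice), with 4 called lower, among them Mal (−0.66, limma adjusted p = 0.0122). Microglia markers had negative differences in 11 of 11 (median −0.22; 33.8 to 37.7 in KO chimeras and 37.5 to 46.8 in control mice), and Trem2 was called lower (−0.42, limma adjusted p = 0.0280). The other lists of brain regions and brain cell types had 0 calls. Their part in the member values was not tested.

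The 6 peptide genes did not vary together from animal to animal beyond what the permutation test allows. Over their 15 pairs, 0 passed an adjusted p of 0.05. The strongest were Ghrh with Kiss1 (r = 0.593, rho = 0.518), Trh with Gnrh1 (r = 0.591, rho = 0.588) and Sst with Gnrh1 (r = 0.521, rho = 0.529), with adjusted permutation p of 0.213 for each r and 0.252 for each rho. The unadjusted permutation p of these r was 0.0316, 0.0201 and 0.0426. Without the 2 arrays farthest from the median these r were 0.308, 0.413 and 0.228. Within scan days 1 and 2 they were 0.778 and 0.777 for Ghrh with Kiss1, 0.659 and 0.597 for Trh with Gnrh1, and 0.509 and 0.681 for Sst with Gnrh1.

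The genes whose pattern over the 16 arrays was most like each peptide, out of 16901 ranked, are given as a description, with Pearson's r after group means were removed. For Trh they include Gsc (0.945) and Cckar (0.886). For Sst they were Ctss (0.889), Hacd4 (0.888) and Eva1b (0.872). For Ghrh they include Btg3 (0.907) and Rax (0.886), with values of 0.623 and 0.608 without the 2 farthest arrays. For Gnrh1 they were Khnyn (0.864), Btnl9 (0.838) and Tagap1 (0.827), for Kiss1 1600010M07Rik (0.784), Trav3n-3 (0.783) and Tnxb (0.781), and for Tac2 Stk26 (0.828), Olfr1270 (0.810) and Rin1 (0.808). Rax is a gene of tanycytes. All of these genes were read on the same arrays as the peptides, and they were picked as the highest of the ranking.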

How the data were processed

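Total RNA of hypothalamus, labelled with Cy3, was read on Agilent arrays. The authors deposited the scanner's linear intensity for each spot, made with Agilent Feature Extraction 10.7 as the submitters' processing notes state. Per the file headers, its background is subtracted. A second deposited table holds log2 values (column medians 5.21 to 5.26); it ran with the scanner's values without centring of genes, how arrays were aligned is unknown, and it served as an alternative. Per-sample columns left unused numbered 0.

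Control spots and outlier-marked spots were dropped, log2 taken, each array's 75th percentile subtracted and spots of a probe averaged. Probes well above background on 8 of 16 arrays were tested in R 4.3.3 with limma 3.58.1 (lmFit, eBayes), Benjamini-Hochberg adjusted, threshold 0.05. No member probe was saturated. Names came from accessions (28026), symbols (3418) or synonyms (295), and 23942 probes kept the files' name. Animals were separate, and p-values reflect the spread among them. The number of arrays limits the precision. Groups came from the labels; 1 KO chimera title is spelled with a zero, and its group came from the source name. Permutations of correlations used 100000 resamples within groups. Scripts were tested on simulated data. Figures used Python 3.11.15 and matplotlib 3.10.9.

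Members and lists were chosen with earlier results of these data known. Genes named were the members, list genes past the threshold (up to 3 per marker list), Adrb1 and, for each peptide, up to 3 genes most like it; others are named as chosen after their values were seen. Alternatives were other background corrections and normalizations, filters, blocks, eBayes settings, array weights, thresholds and each animal left out. Same-numbered animals showed low correlations of their deviations (−0.067 to 0.226), so the main fit did not pair them. The labels do not say what the numbers mean, and these correlations cannot exclude a pairing by design. A few results under these rules are not reported here.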

Additional observations from a re-analysis of the deposited data

Results flagged for a closer look

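For 2 of 24 groups of 8 values (12 probes, each in KO chimeras and in control mice), 1 animal lay farther from its nearest neighbour than Dixon's 95% limit allows (gap over range above 0.526). Chance alone marks about 1 group in 20. Trh in KO chimera replicate 3 was 5.598, with the next KO chimera at 5.116 (gap over range 0.638). Ghrh in control replicate 2 was 2.617, with the next control mouse at 1.78 (gap over range 0.593). That control mouse also had the highest arcuate marker score of its group, 0.69.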

How the results depend on the processing

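Member probes called stayed at 0 under every alternative except a threshold of 0.1, which gave 1 (Kiss1 A_55_P2069768). The lowest member adjusted p by limma was 0.0605, for Ghrh without control replicate 2. Over all probes, 912 calls became 522 with quantile normalization, 214 with normexp, 587 with both, 550 with the deposited table, 459 with no filter, 1504 with a filter on all arrays, 252 with the slide fixed, 1453 with it random, 1472 with trend and robust settings, 1462 with array weights and 2524 at a threshold of 0.1. Within scan day 1 and day 2 limma called 0 (3793 and 4828 at an unadjusted p under 0.05), with fewer samples, and leaving out each animal gave 267 to 1127. Thyroid axis calls, 1, became 0 with normexp, no filter or the slide fixed, and 2 with the filter on all arrays; growth axis calls, 1, became 0 with quantile, no filter or the slide fixed, and 2 with that filter. Reproductive axis calls, 1, became 2 with quantile, normexp and quantile, that filter or the slide random, and 0 with normexp or the slide fixed. Leaving out each animal gave 0 to 1, 0 to 1 and 0 to 2. With the replicate number as a block, 702 probes, 0 members and 0 reproductive axis genes were called (limma adjusted p = 0.0548 for Oprk1 and 0.0613 for Igf1r). The labels do not say whether the numbers pair the animals. Some uncalled differences changed sign. Sstr2 became −0.0539, −0.0401 and −0.0630 with quantile, normexp and quantile and the deposited table, and −0.205 on day 1 (0.367 on day 2). Tac2 became 0.0293, 0.0261 and 0.0193 there, 0.131 on day 1 and 0.0189 without slide 4 (chosen after seeing the data). Gnrh1 A_55_P2095716 became 0.0717 with normexp and 0.0801 with the slide fixed, Sst −0.00496 with the slide fixed and −0.0605 on day 1, Trh −0.0565 on day 1 and Trhr 0.0641 on day 2. Leaving out each animal gave Sstr2 −0.0272 to 0.191, Tac2 −0.111 to 0.0490 and Gnrh1 A_55_P2095716 −0.121 to 0.00034; without a sign change it gave Trh 0.0400 to 0.271, Sst 0.00777 to 0.117, Trhr −0.168 to −0.0316 and Sstr1 A_66_P100777 −0.139 to −0.0512. The cause of these changes was not tested. The larger differences kept their sign under every alternative but not their size. Kiss1 A_55_P2069768 ran from 0.192 to 0.562 and Kiss1 A_55_P2069765 from 0.208 to 0.947. Gnrh1 A_55_P2110860 ran from 0.128 to 0.822 and Ghrh from 0.204 to 0.520. No peptide pair passed in any setting. Dim probes (Gnrh1, Sstr1 A_51_P432950) limit what could be seen.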
